A study of Macaca mulatta with 7 samples.

Results

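The lumbar spinal cord of a rhesus monkey 6 months post injury (mpi) was compared with that of another monkey at 30 days post injury (dpi), by single-nucleus RNA-seq of 1 library each. Nuclei were included when they held at least 1000 unique molecular identifiers (UMIs, each a captured RNA molecule) and over 500 detected genes, which 9183 of 9497 barcodes at 30 dpi and 5934 of 6134 at 6 mpi did. After removal of the nuclei with the highest doublet scores, 8723 nuclei at 30 dpi and 5637 at 6 mpi remained, 14360 of the 63729 nuclei kept in all 7 libraries of the series. The series asked how cord tissue responds over time to a complete thoracic injury, and the lumbar cord lies below that lesion. Both animals compared were 6 years old and had received the complete thoracic injury without further treatment given in the labels. The other libraries came from the intact cervical, thoracic and lumbar cord of an animal aged 5 years and from the lumbar cord at 7 and 14 dpi, from animals aged 7 years.

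Each time point was 1 library of 1 animal, so that time, animal and library cannot be told apart, and no difference has a replicate check. Intervals given with fold changes and shares are 95% intervals that cover counting error only. The 6 mpi library was the shallowest of the series, with 45079131 UMIs and a median of 3173 per kept nucleus, against 130900528 UMIs and 7306 per nucleus at 30 dpi. Mitochondrial genes took 0.0289% of UMIs at 6 mpi, above the 0.0045% to 0.0128% of the other 6 libraries. The libraries at 30 dpi and 6 mpi shared 17 barcodes. Nuclei were grouped by clustering all 7 libraries and naming clusters from canonical markers. The microglia, oligodendrocyte and oligodendrocyte precursor cell (OPC) markers were each highest in the class named for them at both times, as were 7 of 8 neuron markers at both times and 7 of 7 astrocyte markers at 30 dpi and 6 of 7 at 6 mpi. No marker of a class was at 0 in that class. The classes were named from these same markers, so that this follows in part from the naming.

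Microglia are the resident macrophages of the cord. After a lesion cuts the descending tracts, the axons below it degenerate slowly, and microglia there take up axon and myelin debris, which is broken down in lysosomes, while oligodendrocytes, which make myelin, lose the axons they wrapped. A state of microglia with high GPNMB, a lysosomal membrane glycoprotein, and high lipid handling is known from degenerating white matter, and inflammatory microglia instead express cytokines such as TNF and chemokines such as CCL2.

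MLPH, which encodes melanophilin, a linker between vesicles and a myosin motor, is shown here by the 250 bases before its annotated start, because it was the named gene with the largest rise, on the log2(CPM + 1) scale, in both microglia-like and oligodendrocyte-like nuclei. The window was read from the Mmul_10 genome on the strand of the gene, with a motif match in capitals. MLPH lies at chr12:124881411-124948748 on the plus strand and its window at chr12:124881161-124881410.
MLPH: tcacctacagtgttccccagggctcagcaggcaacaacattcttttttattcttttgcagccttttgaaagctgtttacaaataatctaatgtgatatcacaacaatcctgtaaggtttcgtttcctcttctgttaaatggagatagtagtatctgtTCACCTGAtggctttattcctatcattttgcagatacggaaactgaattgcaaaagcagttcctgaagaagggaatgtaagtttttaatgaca
Both strands were searched for TCACNTGA (a loose pattern around an E-box), ACANNNTGT (glucocorticoid receptor), GGGNNTTCC (NF-kB) and TTCCNGGAA (STAT), in which N is any base. The MLPH window held TCACCTGA 93 bases before the start and none of the other motifs. Of the same windows of 16307 genes, 4.18% held TCACNTGA, 3.26% ACANNNTGT, 5.59% GGGNNTTCC and 0.86% TTCCNGGAA. Among other windows searched, not all of which are reported here, those of GPNMB, CTSD, CHIT1, FKBP5, TSC22D3, SGK1 and TNF held none of these letters, and that of LPL held ACAATATGT 242 bases before its start. A match is a description of the sequence, not a shown binding site.

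The shares of the 5 larger classes differed by at most 3.28 points between 30 dpi and 6 mpi. Microglia-like nuclei made up 44.2% (3852 nuclei) at 30 dpi and 41.0% (2310 nuclei) at 6 mpi, 3.18 points lower (interval -4.83 to -1.52), and both values were above the 19.3% of intact lumbar cord. Oligodendrocyte-like nuclei made up 30.9% and 34.2%, 3.28 points higher (1.71 to 4.85). Neuron-like nuclei made up 14.8% and 15.2%, a difference of 0.43 points (-0.76 to 1.64), against 25.9% in intact lumbar cord. OPC-like nuclei were at 3.82% and 4.03% and astrocyte-like nuclei at 1.78% and 2.13%, with intervals of the difference that hold 0 in both (-0.43 to 0.88 and -0.11 to 0.84 points). T cell-like nuclei numbered 86 and 23 and ependymal-like nuclei 46 and 6, too few for a comparison of expression. Clusters left unnamed held 3.04% and 2.94%. When only nuclei with over 2000 UMIs were kept, the difference in microglia-like nuclei became -9.69 points, in oligodendrocyte-like nuclei 5.28 points and in neuron-like nuclei 3.32 points, so that these differences depended on the minimum set.

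Expression was compared per class by summing UMIs over its nuclei and scaling to the class total (counts per 1e6 UMIs, CPM), and a gene was called higher or lower when log2((CPM + 1) at 6 mpi / (CPM + 1) at 30 dpi) reached 1 in either direction. A gene was measured when its higher CPM was worth at least 50 UMIs in the shallower class total. In microglia-like nuclei 1154 of 9869 measured genes were higher at 6 mpi (11.7%) and 271 lower (2.75%). In oligodendrocyte-like nuclei 702 of 9964 were higher (7.05%) and 210 lower (2.11%), and in neuron-like nuclei 435 of 13784 were higher (3.16%) and 121 lower (0.878%). In OPC-like nuclei 209 of 3947 were higher (5.3%) and 55 lower (1.39%), and in astrocyte-like nuclei 146 of 3213 were higher (4.54%) and 139 lower (4.33%). Against these, pairs of the 3 intact segments of 1 animal differed either way at 2.13% to 3.22% of genes in microglia-like, 0.145% to 0.775% in oligodendrocyte-like, 0.320% to 0.621% in neuron-like, 0.993% to 1.89% in OPC-like and 1.49% to 8.41% in astrocyte-like nuclei. The libraries at 30 and 14 dpi, from different animals, differed either way at 7.10% of genes in microglia-like, 3.91% in oligodendrocyte-like, 1.25% in neuron-like, 2.44% in OPC-like and 5.58% in astrocyte-like nuclei. Those at 14 and 7 dpi differed at 9.95%, 7.11%, 2.74%, 5.71% and 9.26% in the same order, and those at 6 mpi and 30 dpi at 14.4%, 9.15%, 4.03%, 6.69% and 8.87%, so that in astrocyte-like nuclei the share was higher for the 14 and 7 dpi pair. Each pair had its own floor in CPM and its own measured genes, so these shares are only roughly comparable. In astrocyte-like nuclei 3213 genes were measured for 6 mpi and 30 dpi, against 10414 to 10803 for the intact pairs.

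The excess of higher calls moved with the length and base composition of genes. The median log2 ratio of all measured genes was 0.21 in microglia-like and 0.12 in oligodendrocyte-like nuclei, and changes in these classes are to be read relative to it. In microglia-like nuclei the median was 0.58 in the quintile of genes with the shortest genomic span and 0.022 in the quintile with the longest, and 0.52 in the quintile with the highest GC content of the transcript. Neuron-like nuclei gave 0.30 for the shortest quintile and 0.36 for the most GC-rich quintile. The calls themselves did not follow length steadily in microglia-like nuclei. There 22.2% of genes were called higher in the shortest quintile, 4.98% in the middle quintile and 15.3% in the longest. With ratios centred within quintiles of span and GC content, an alternative chosen after seeing the data, microglia-like nuclei had 658 higher and 401 lower genes, oligodendrocyte-like nuclei 303 and 300, neuron-like nuclei 186 and 171, OPC-like nuclei 85 and 83, and astrocyte-like nuclei 71 and 152. Counts of higher genes in each class are therefore not read as a direction here, and each named gene that this centring takes below 2-fold is given as such. What moves these genes, including the depth, the mitochondrial share and the animal, was not tested.

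**Figure D1:**
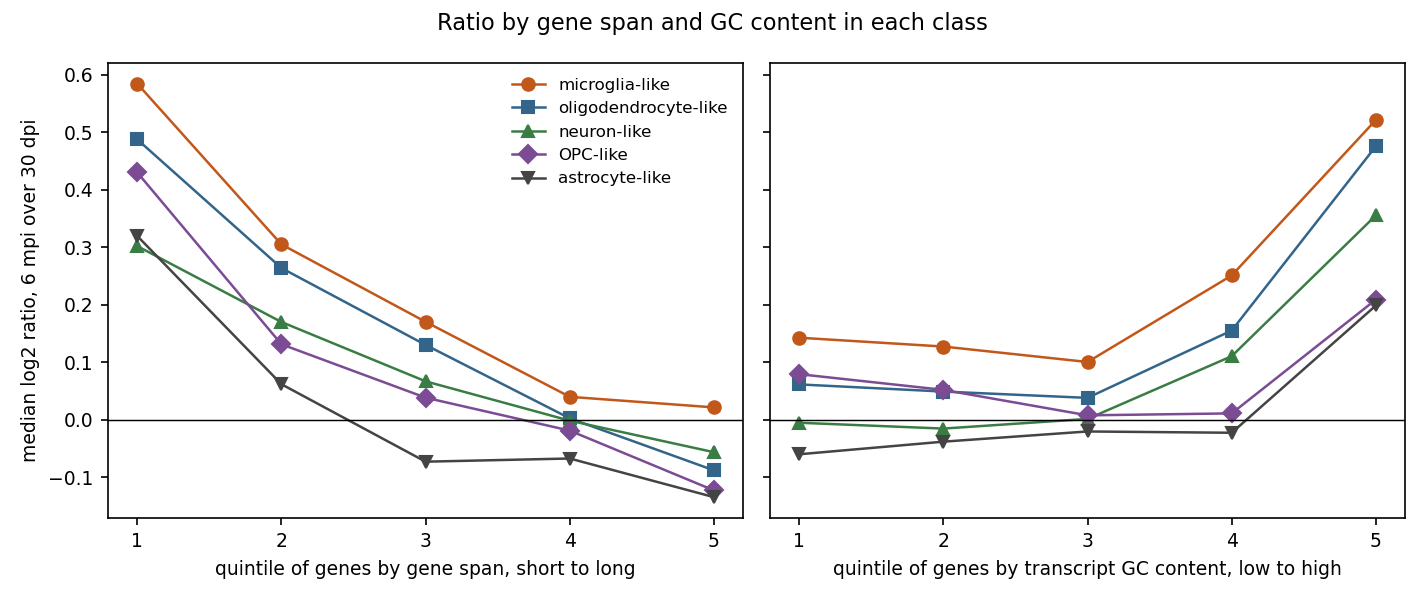
Median log2 ratio of 6 mpi over 30 dpi (y axis) by quintile of genomic span and by quintile of transcript GC content (x axes), 1 line per class. Short and GC-rich genes had the highest medians in all 5 classes, reaching 0.58 in the shortest quintile of microglia-like nuclei.

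Among all genes, 64 were higher in at least 4 of the 5 classes and 2 were lower. The mitochondrial genes COX3 and ATP6, subunits of cytochrome c oxidase and ATP synthase, were higher in all 5 classes, with a median log2 ratio over classes of 3.90 and 2.57. SEPTIN5, a filament protein, had a median of 2.02 and LCAT, a cholesterol-esterifying enzyme of lipoproteins, 1.97. CLK1, a kinase of splicing factors, had ratios from 1.17 to 2.07 in the 5 classes. It belonged to a list of 21 RNA splicing genes, of which 6 of 21 measured rose in microglia-like, 5 of 21 in oligodendrocyte-like, 1 of 21 in neuron-like, 8 of 19 in OPC-like and 1 of 18 in astrocyte-like nuclei, and none fell in any of the 5. Their median log2 ratio lay between 0.55 and 0.89 in every class, while that of all genes lay between 0.00 and 0.21. Of all genes, 11.7%, 7.05%, 3.16%, 5.3% and 4.54% were higher in these classes in the same order, so that the counts in neuron-like and astrocyte-like nuclei were near the share of all genes. The members of this list span from 3946 bases (SRSF2) to 63158 (HNRNPC), and short genes had raised ratios, as given above. All genes of the shortest quintile had medians of 0.58, 0.49, 0.30, 0.43 and 0.32 in the same order of classes. The part of gene length in the ratios of the list was not tested. Whether these ratios follow the time or the library cannot be told apart.

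Microglia-like nuclei had the highest share of genes past 2-fold, 14.4% either way. At 6 mpi CTSD, CHIT1, GPNMB, TSC22D3 and SGK1 were higher, and TNF, CCL2, IL1B, CD74, MAMU-DRA, SPP1 and LPL were lower. The clusters holding these nuclei were not the same at both times. At 30 dpi 2139 of 3852 were in a cluster led by CCL4L1, CD83 and TNF (cluster 10) and 1289 in one led by ITGAX and GPNMB (cluster 13), while at 6 mpi 1176 of 2310 were in another GPNMB- and CHIT1-led cluster (cluster 17), of which 30 dpi had 12 nuclei, and 910 in one led by SLC11A1 and CD74 (cluster 4). The summed CPM of 7 oligodendrocyte markers in microglia-like nuclei was 136 at 30 dpi and 336 at 6 mpi, and 5 of the 7 were past 2-fold. Its part in the differences was not tested.

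GPNMB (chr3:91829663-91903103) stood at 4.48 CPM in the intact lumbar library, reached 65.1, 153.2 and 496 CPM at 7, 14 and 30 dpi, and ended at 1496 CPM, so that each library was above the one before. From 30 dpi to 6 mpi it rose 3.02-fold (2.94 to 3.10). CHIT1, a secreted chitinase of lipid-laden macrophages, had 1.09, 6.42, 13.9, 209 and 627 CPM in the same order and rose 3.0-fold (2.88 to 3.13), although with span and GC centring its log2 ratio was 0.80. CTSD, the lysosomal protease cathepsin D, had 13.8, 46.7, 41.9, 110 and 402 CPM and rose 3.66-fold (3.47 to 3.86). TPP1, another lysosomal peptidase, was at 28.8 and 59.9 CPM and passed 2-fold at 2.08-fold, with a log2 ratio of 0.69 after that centring. These were the only 4 of 28 measured lysosomal genes past 2-fold, a share near the 11.7% of all genes that were higher, and none fell: CTSB was at 761 and 727 CPM, MITF, a factor that drives lysosomal genes, at 1285 and 876, and LIPA, the lysosomal acid lipase, at 172 and 114. The median log2 ratio of the list was 0.16, below the 0.21 of all genes.

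**Figure D2:**
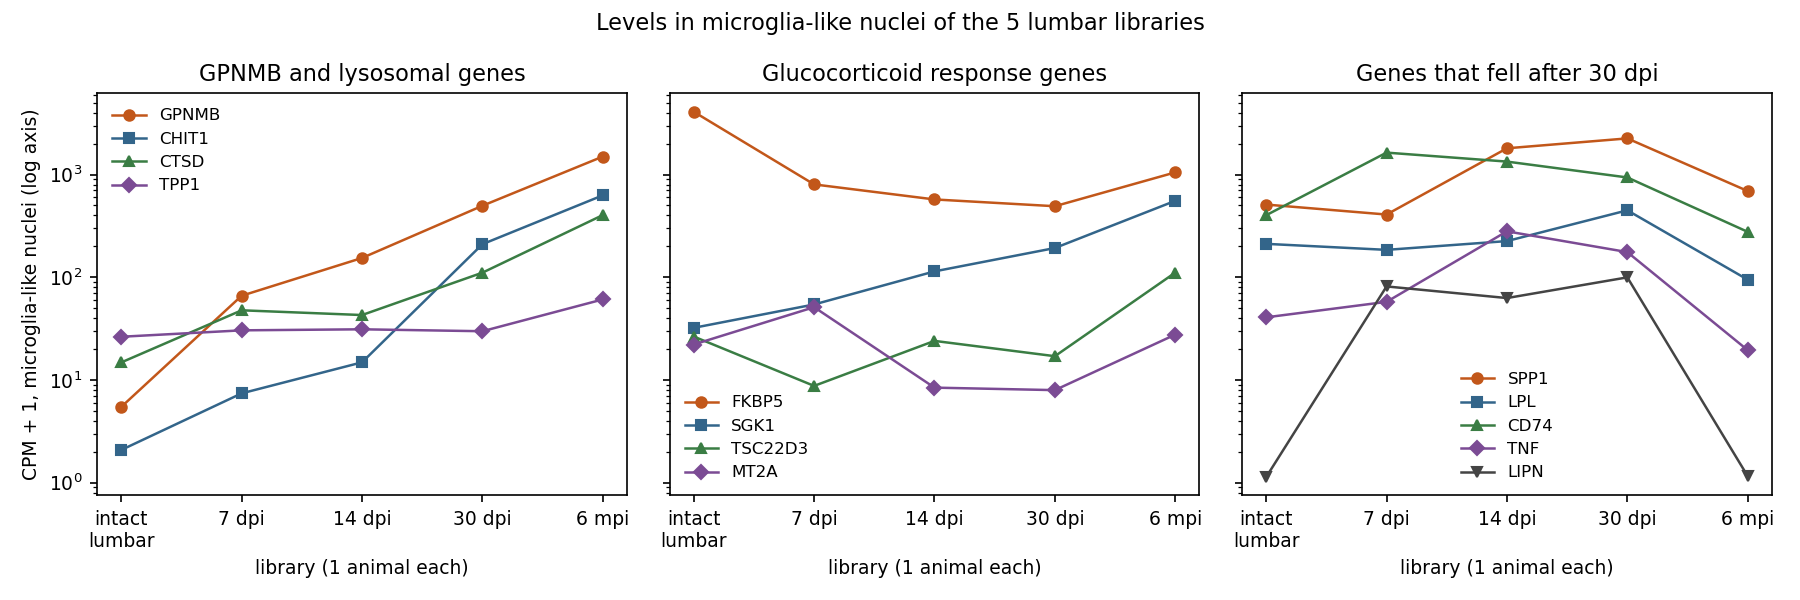
CPM + 1 (log axis) of genes in microglia-like nuclei across the intact lumbar library and the 4 lumbar libraries after injury (7, 14 and 30 dpi, 6 mpi), 1 point per library, with lines that join libraries of different animals. GPNMB climbed to 1496 CPM at 6 mpi, whereas LIPN was at 98.8 CPM at 30 dpi and 0.16 at 6 mpi.

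Of 17 measured lipid handling genes, 3 rose and 2 fell, beside 11.7% of all genes higher and 2.75% lower, with a median of 0.22. FABP5, a fatty acid binding protein, was at 71.9 and 171 CPM and rose 2.37-fold (2.20 to 2.56), with a log2 ratio of 0.90 after span and GC centring. PLA2G7, a lipoprotein-associated phospholipase, was at 5.66 and 26.7 CPM, and the shares of nuclei given later do not settle whether this is background. VLDLR, a lipoprotein receptor, was at 2.67 and 12.5 CPM, with a log2 ratio of 0.83 when 10 rather than 1 was added to each CPM (CPM + 10). LPL, lipoprotein lipase, had 211 CPM in intact tissue, 184, 224 and 448 CPM at 7, 14 and 30 dpi, and 93.8 at 6 mpi. It fell 4.77-fold (4.39 to 5.20) to less than in any earlier lumbar library. CD36, a fatty acid scavenger receptor, fell from 14.2 to 2.88 CPM, with -0.91 at CPM + 10. APOE, the main lipid carrier of the brain, was at 487 and 580 CPM and PPARG, a lipid-sensing factor, at 838 and 851, neither past 2-fold.

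Of 16 measured scavenger and phagocytic receptor genes, none rose and 3 fell, beside 11.7% and 2.75% of all genes, with a median of -0.34. SPP1, the secreted phosphoprotein osteopontin, had 509, 407 and 1800 CPM in intact cord and at 7 and 14 dpi, 2247 at 30 dpi and 690 at 6 mpi. It fell 3.26-fold (3.16 to 3.36). CLEC7A, the receptor dectin-1, went from 460 to 136 CPM and fell 3.39-fold (3.16 to 3.64), and CD163, a hemoglobin scavenger receptor of macrophages, went from 149 to 72.4 CPM and fell 2.06-fold (1.87 to 2.28), with a log2 ratio of -0.95 at CPM + 10 and -0.99 when the 2 libraries were clustered alone. ITGAX, an integrin subunit of activated microglia, was at 945 and 908 CPM and MSR1 at 763 and 412, not past 2-fold. Of 11 measured homeostatic microglia genes SLCO2B1, an organic anion transporter, rose from 989 to 2302 CPM and none fell, and P2RY12, the ADP receptor of resting microglia, was at 848 and 601 CPM against 1276 in intact lumbar cord.

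Of 14 measured cytokine and chemokine genes, none rose and 4 fell, beside 11.7% and 2.75% of all genes, with a median log2 ratio of -0.56. TNF had 39.8 CPM in intact tissue, 56.7, 279 and 175 at 7, 14 and 30 dpi and 18.5 at 6 mpi. It fell 9.44-fold (7.85 to 11.5) and ended below the intact level. CCL2, a monocyte chemoattractant, had 22.8, 19.8, 101 and 130 CPM before and 27.2 at 6 mpi, and fell 4.80-fold (4.11 to 5.63). IL1B, interleukin 1 beta, went from 130 to 49.2 CPM and fell 2.65-fold (2.36 to 2.99), and CCL5 went from 28.8 to 11.2 CPM, with -0.87 at CPM + 10. CCL3, another chemokine, was at 457 and 849 CPM, higher but not past 2-fold. None of 10 NF-kB genes and none of 18 interferon response genes passed 2-fold either way, with medians of 0.50 and -0.23. Among 10 complement genes C5AR1, the receptor of C5a, fell from 73.6 to 29.7 CPM and none rose.

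The MHC class II genes, which present antigen to T cells, had a median of -0.65, and 2 of 7 measured fell, beside 2.75% of all genes. CD74, the invariant chain, had 401 CPM in intact tissue, 1634, 1336 and 936 at 7, 14 and 30 dpi and 276 at 6 mpi. It fell 3.39-fold (3.23 to 3.57). MAMU-DRA had 157, 481, 388, 292 and 126 CPM in the same order and fell 2.31-fold (2.15 to 2.49). All 7 measured genes of the list had lower CPM at 6 mpi, and the least distant was MAMU-DOB at 12.6 and 9.58 CPM. T cell-like nuclei made up 0.986% of nuclei at 30 dpi and 0.408% at 6 mpi, against 0.157% in intact lumbar cord. A link between these shares and the MHC class II genes was not tested.

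Glucocorticoid response genes rose in microglia-like nuclei in 5 of 9 cases and fell in none, beside 11.7% of all genes higher and 2.75% lower, with a median of 1.09. TSC22D3, a glucocorticoid-induced inhibitor of inflammation, had 25.5 CPM in intact tissue, 7.76, 23.0 and 16.1 at 7, 14 and 30 dpi and 110 at 6 mpi. It rose 6.85-fold (6.05 to 7.77). SGK1, a kinase, had 31.2, 53.4, 113, 192 and 554 CPM and rose 2.89-fold (2.77 to 3.02). FKBP5, a co-chaperone of the glucocorticoid receptor, had 4083 CPM in intact tissue, 801, 571 and 491 at 7, 14 and 30 dpi and 1049 at 6 mpi. It rose 2.14-fold (2.07 to 2.20), a log2 ratio of 0.89 relative to the median gene, and stayed well under the intact level. MT2A, a metal-binding metallothionein, went from 6.97 to 26.7 CPM, and ZBTB16 from 0.68 to 8.94, a log2 ratio that was 0.83 at CPM + 10 and 0 once free RNA was subtracted. NR3C1, the receptor itself, was at 690 and 786 CPM.

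Among 15 immediate early genes, which respond within minutes to stimulation, 1 rose and 4 fell, beside 11.7% and 2.75% of all genes. ATF3 went from 28.6 to 79.2 CPM, whereas EGR2, EGR3, NR4A2 and NR4A3 fell, EGR2 from 162 to 77.0 CPM (-0.98 at CPM + 10) and NR4A3 from 178 to 82.6. FOS was at 308 and 509 CPM, not past 2-fold. Of 11 heat shock genes HSPH1 passed 2-fold, at 27.9 and 56.9 CPM, but not after any centring. None of 20 autophagy genes passed. Of 9 cell cycle genes TOP2A, CENPF and BRIP1 fell and CCNA2 rose, beside the same shares of all genes, but none of these calls held at CPM + 10. There TOP2A was at -0.67, CENPF at -0.80, BRIP1 at -0.76 and CCNA2 at 0.50, and after thinning TOP2A was at -0.97 and BRIP1 at -0.65. CCNA2 was at 5.06 and 11.3 CPM, with a log2 ratio of 0.82 relative to the median gene and 0.61 after span and GC centring, and the cluster led by TOP2A held 39 nuclei at 30 dpi and 2 at 6 mpi. Of 3 measured monocyte and neutrophil markers FN1, fibronectin, fell, and PECAM1 was at 57.0 and 48.7 CPM.

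The largest rises among genes with at least 50% of the CPM of their highest class in microglia-like nuclei were in MLPH, SIGLEC6, GLYATL1B, ROR1, ANKRD62, FAM120A2P, OPRL1, BIRC7, TRIM17 and RARRES2. MLPH had 0.81 CPM in the intact lumbar library, 0.90, 1.63 and 3.35 at 7, 14 and 30 dpi and 99.0 at 6 mpi. It rose 29.6-fold (23.5 to 37.6), from 84 to 620 UMIs. SIGLEC6, a sialic acid-binding receptor, had 8.14, 32.3, 24.2 and 3.27 CPM and then 68.8, and rose 21.1-fold (16.6 to 27.0). ROR1, a receptor for WNT5A, had 1.49, 3.21, 1.49 and 10.3 CPM and then 176, and rose 17.1-fold (14.9 to 19.6). For MLPH and ROR1 the 6 mpi library stood alone, with all 4 other lumbar libraries at or below 10.3 CPM. OPRL1, the nociceptin receptor, rose 12.9-fold (10.98 to 15.2), from 7.77 to 100.3 CPM. BIRC7, an inhibitor of apoptosis proteins, rose from 3.63 to 42.8 CPM.

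The largest falls were in LIPN, EGFL6, PON3, FN1, HSPG2, ZCWPW2, NXN, CMTM8, TNF and CALCR. LIPN, a lipase of the gastric lipase family (chr9:89023916-89042079), had 0.14 CPM in the intact lumbar library, 80.5, 61.8 and 98.8 CPM at 7, 14 and 30 dpi and 0.16 CPM at 6 mpi. These are 2480 UMIs at 30 dpi and 1 UMI at 6 mpi, a ratio of 619 (111 to 24441). LIPN was thus high in all 3 earlier injury libraries and at the intact level at 6 mpi. PON3, a paraoxonase, was at 43.0 and 0.80 CPM and fell 53.9-fold (23.0 to 166), having been at 2.72 CPM at 14 dpi. NXN, the redox protein nucleoredoxin, had 12.5, 88.2, 158, 203 and 15.8 CPM and fell 12.8-fold (10.5 to 15.8). FN1 was at 1.73 CPM at 14 dpi, 77.2 at 30 dpi and 2.56 at 6 mpi and fell 30.2-fold (18.6 to 52.9). CALCR, the calcitonin receptor, had 318 CPM in the intact lumbar library, 78.7 and 133 at 7 and 14 dpi, 14.3 at 30 dpi and 0 UMIs at 6 mpi. Against a floor of 3 UMIs in the 6 mpi library it was at least 29.8-fold lower. FN1, ZCWPW2 and PON3 were high at 30 dpi only, so that these falls rest on the 30 dpi library.

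**Figure D3:**
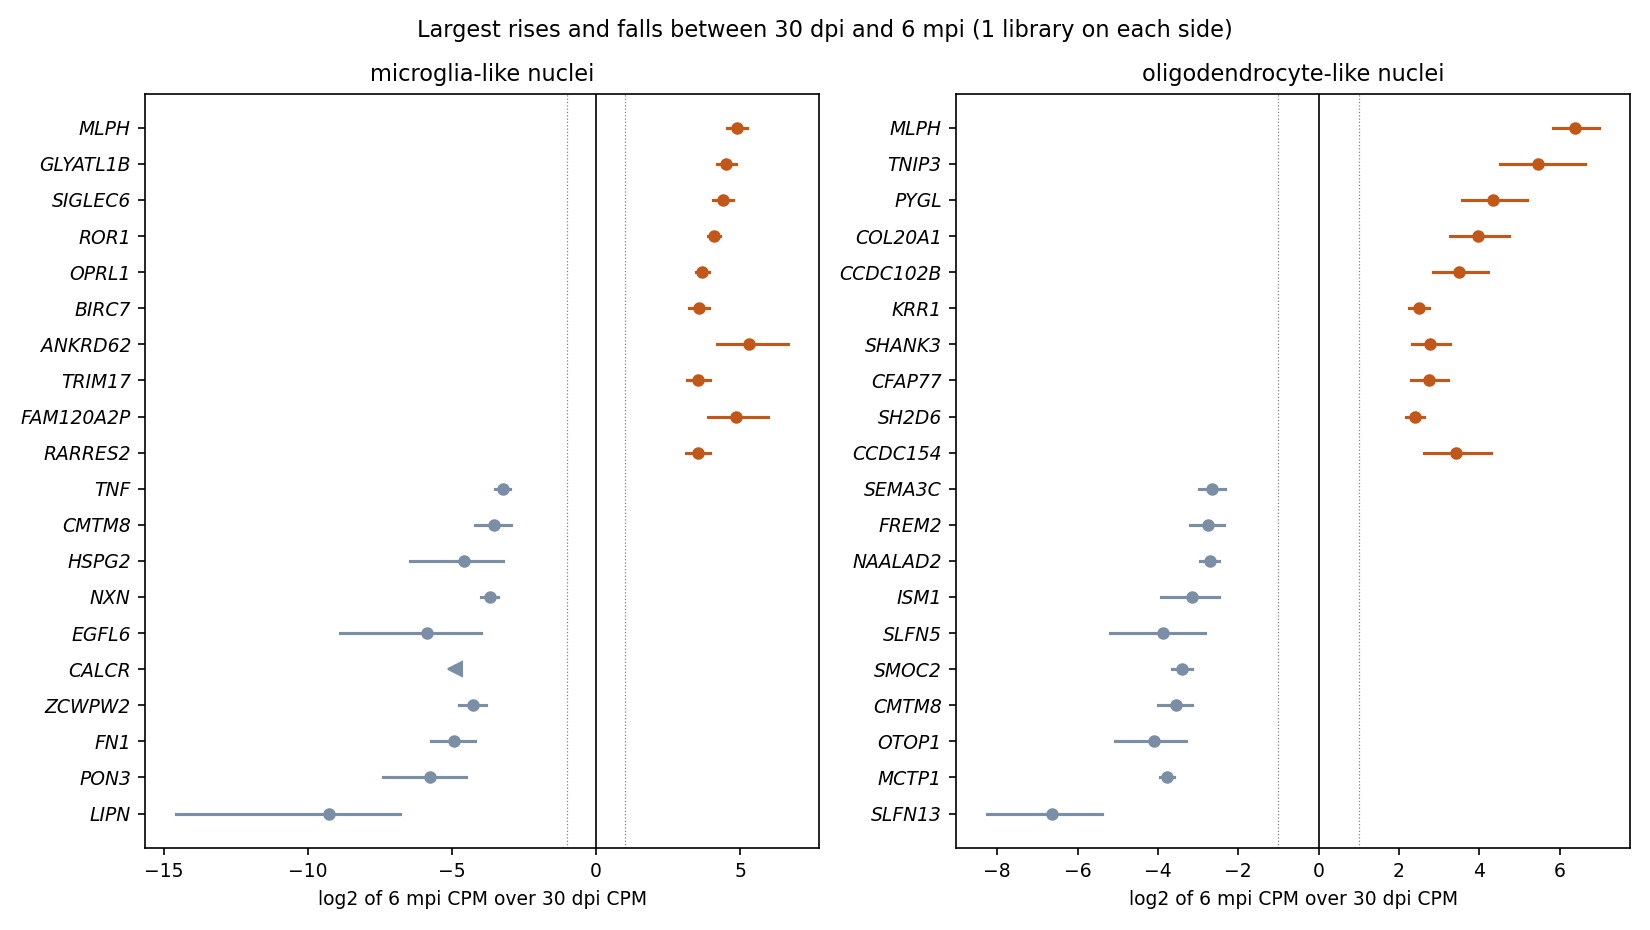
Log2 ratio of 6 mpi over 30 dpi (x axis) with 95% counting intervals for the 10 largest rises and 10 largest falls in microglia-like nuclei (left panel) and oligodendrocyte-like nuclei (right panel), 1 point per gene, without pseudocount. The triangle of CALCR is a bound against 3 UMIs, and the dotted lines mark 2-fold. The intervals of the largest changes lie beyond the 2-fold lines, as for MLPH in oligodendrocyte-like nuclei at 83.6-fold.

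Because cluster makeup differed, the ratios were also taken within the 4 microglia-like clusters that had at least 20 nuclei at both times. These leave out cluster 17, which held 50.9% of the microglia-like nuclei at 6 mpi, and clusters 10 and 13 had only 59 and 62 nuclei at 6 mpi. Of the 20 genes with the largest changes, 16 kept their direction in all 4 clusters and 14 were past 2-fold in all 4. The exceptions in direction were MLPH, ANKRD62, FAM120A2P and RARRES2, and MLPH had log2 ratios of 4.62, 3.21 and 2.54 in clusters 10, 13 and 4 and -0.64 in cluster 3. Of 35 other genes named and past 2-fold, 17 kept their direction in all 4 clusters and 4 were past 2-fold in all 4. LIPN had log2 ratios from -7.56 to -4.70, SIGLEC6 from 2.77 to 4.41, CD74 from -2.42 to -1.29 and SGK1 from 1.06 to 2.36. CCL2, CCL5, EGR2, LPL, PLA2G7 and SLCO2B1 were past 2-fold in the direction of the class within none of the 4, and CCL2 was past it in the opposite direction in cluster 10, at 1.08. GPNMB had ratios of 2.71 and 1.68 in clusters 3 and 10 but 0.13 and -0.42 in clusters 4 and 13. SPP1 had -2.01 in cluster 4 and 0.96 in cluster 13, and TNF between -1.20 and -0.35. The ratios of GPNMB and SPP1 thus differed in sign between clusters that also changed in size, while those of LIPN, SIGLEC6, CD74 and SGK1 did not. Clusters were formed from these same expression values without aligning the libraries, so nuclei in the same cluster resemble each other by construction. A gene that leads a cluster, as GPNMB does cluster 13 and TNF cluster 10, may therefore differ little within it. The same limit holds for ratios within clusters of the other classes.

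**Figure D4:**
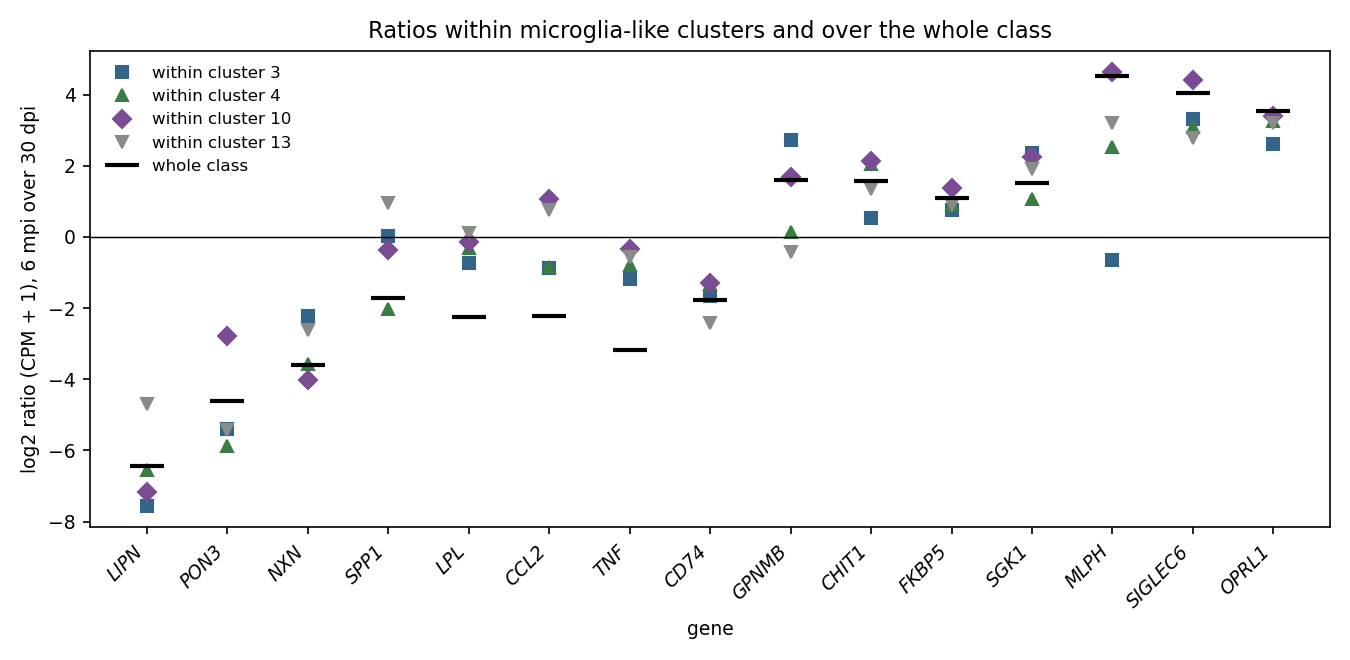
Log2 ratio of 6 mpi over 30 dpi within each of the 4 microglia-like clusters with at least 20 nuclei at both times (points) beside the ratio over the whole class. LIPN, SIGLEC6 and CD74 lie on 1 side of 0 in all 4 clusters, while GPNMB, SPP1 and LPL do not.

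The share of microglia-like nuclei with a UMI was compared after thinning each nucleus to 1000 UMIs, since depth differed. MLPH was seen in 0.36% of nuclei at 30 dpi and 8.05% at 6 mpi (1.35% and 16.9% before thinning), against 0.39% and 0.58% of neuron-like nuclei. SIGLEC6 was seen in 0.39% and 6.75% (2.0% and 15.5% before thinning), against 0.08% and 0.58% of neuron-like nuclei. LIPN was seen in 8.33% at 30 dpi and 0 of 2310 at 6 mpi, for which the exact interval reaches 0.16%, and before thinning in 26.3% and 0.04%. SPP1 was seen in 58.9% and 21.1% (80.1% and 31.5%), CD74 in 51.9% and 22.0% (85.2% and 40.4%) and FKBP5 in 35.0% and 58.5% (78.6% and 81.5%). In neuron-like nuclei these were at or below 3.49% at both times after thinning. Median depths before thinning were 5810 and 2396.5 UMIs in microglia-like and 39010.5 and 21300.5 in neuron-like nuclei. At 30 dpi ROR1 and NXN also had UMIs in neuron-like nuclei, in 6.59% and 4.11%. PLA2G7 was seen in 2.33% of neuron-like nuclei at 6 mpi against 2.42% of microglia-like nuclei. In the intact lumbar library PLA2G7 was seen in 1.81% of neuron-like nuclei and in 0 of 2089 microglia-like nuclei. Whether its level in microglia-like nuclei is background is therefore not settled.

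Each gene was also placed by its course over intact lumbar cord, 30 dpi and 6 mpi. These courses share the 30 dpi library, and a high value there alone gives a rise followed by a fade. Of the genes measured, 807 (8.18%) in microglia-like nuclei were at least 2-fold higher at 30 dpi than in intact lumbar cord and 489 (4.95%) lower. In oligodendrocyte-like nuclei these were 270 (2.71%) and 156 (1.57%), and in neuron-like nuclei 189 (1.37%) and 99 (0.718%). Most genes that were up at 30 dpi held: in microglia-like nuclei 581 of 807 (72.0%) stayed within 2-fold of their 30 dpi level, 131 (16.2%) faded by at least 2-fold, 87 (10.8%) rose by a further 2-fold, among them GPNMB, CTSD, CHIT1 and SGK1, and 8 reversed. In oligodendrocyte-like nuclei 170 of 270 (63.0%) held, 72 (26.7%) faded and 23 (8.52%) still rose. In neuron-like nuclei 133 of 189 (70.4%) held, 55 (29.1%) faded and 1 (0.529%) still rose. Of all genes measured in the 3 classes, 14.4%, 9.15% and 4.03% were past 2-fold either way between 30 dpi and 6 mpi. Genes up at 30 dpi thus held less often than all genes did. Higher at 6 mpi were 11.7%, 7.05% and 3.16% of all genes and lower 2.75%, 2.11% and 0.878%. The shares that still rose were near or below those of all genes.

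Of the genes that were down at 30 dpi, in microglia-like nuclei 189 of 489 (38.7%) recovered by at least 2-fold, among them FKBP5, 253 (51.7%) stayed low, 41 ended at least 2-fold above intact, SIGLEC6 among them, and 6 fell further, CALCR and CD163 among them. Against the mean of the 3 intact libraries, 311 microglia-like genes recovered and 234 stayed low, which turned the order. In oligodendrocyte-like nuclei 60 of 156 (38.5%) recovered and 85 (54.5%) stayed low, and in neuron-like nuclei 39 of 99 (39.4%) recovered and 57 (57.6%) stayed low. Of all genes in the 3 classes, 11.7%, 7.05% and 3.16% were higher at 6 mpi. A low value at 30 dpi alone gives a fall followed by a recovery. A further 837, 610 and 392 genes in the 3 classes were within 2-fold of intact at 30 dpi and higher at 6 mpi, and 126, 131 and 66 were lower. The late rises are the calls that centring on the median took down most, to 529 in microglia-like nuclei.

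**Figure D5:**
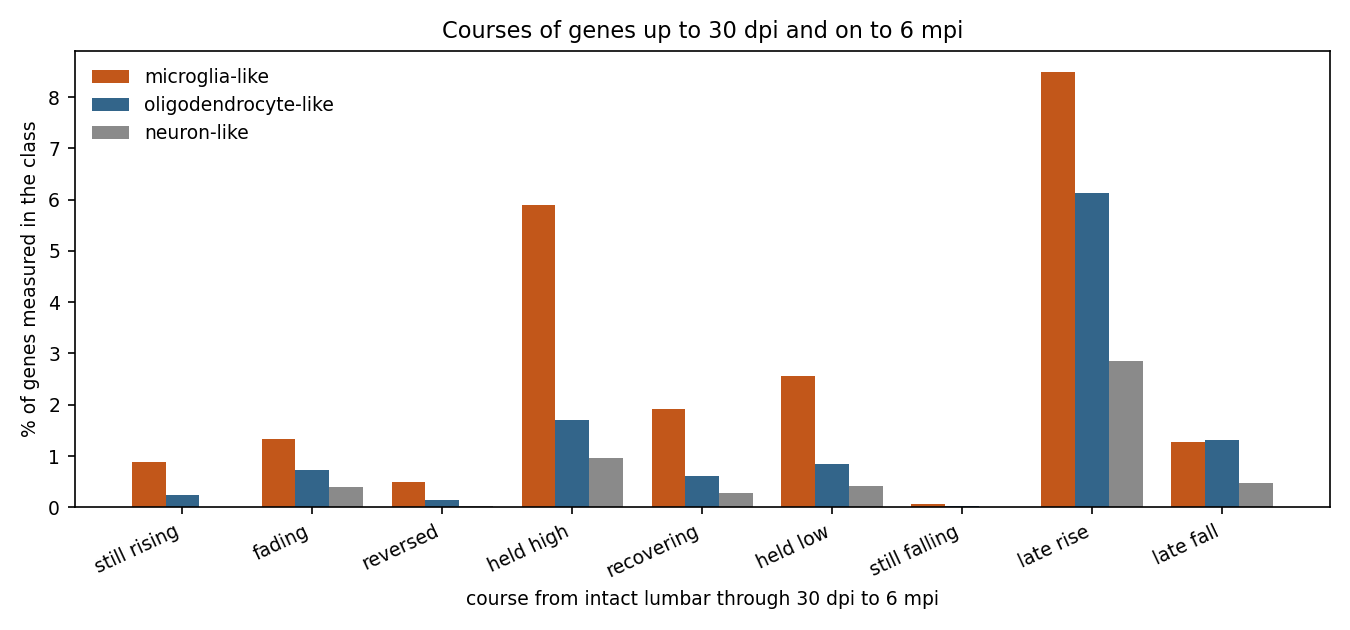
Percent of measured genes (y axis, starting at 0) that took each course over intact lumbar cord, 30 dpi and 6 mpi (x axis), with 1 bar each for microglia-like, oligodendrocyte-like and neuron-like nuclei. Genes held high made up 5.89%, 1.71% and 0.965%, and late rises 8.48%, 6.12% and 2.84%.

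In oligodendrocyte-like nuclei none of 17 measured core myelin genes passed 2-fold, a count near the 9.15% of all genes past it either way, with a median log2 ratio of -0.01. MBP, myelin basic protein, was at 7149 and 7210 CPM and ENPP2 at 1100 and 1196. The most distant were MYRF, the factor that drives myelin genes, at 295 and 413 CPM, and MAL at 70.8 and 39.8. Of 25 measured cholesterol and fatty acid synthesis genes, none rose and 3 fell, beside 7.05% and 2.11% of all genes, with a median of -0.35. FDFT1, squalene synthase, had 104 CPM in intact tissue, 78.4 at 30 dpi and 30.4 at 6 mpi, and fell 2.58-fold (2.27 to 2.94). DHCR7, the last enzyme of cholesterol synthesis, fell from 8.34 to 2.18 CPM but stood at a log2 ratio of 0.020 when nuclei were thinned. SREBF2, which drives these genes, was at 181 and 149 CPM. The study used 4 genes to mark disease-associated oligodendrocytes, which it chose on these samples. SERPINA3, the one it also stained for, was too low to be measured here. None of the 3 measured passed 2-fold, a count near the 9.15% of all genes past it either way. Their median was -0.71, against 0.12 for all genes. NRXN3 was at 148 and 80.9 CPM, UBASH3B at 18.2 and 10.8 and MT2A at 4.4 and 7.92.

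The largest rises in oligodendrocyte-like nuclei were in MLPH, TNIP3, PYGL, COL20A1, CCDC102B, CCDC154, SHANK3, CFAP77, KRR1 and SH2D6, of which CCDC102B and CCDC154 were under 2-fold at CPM + 10. MLPH had 42.6 CPM in the intact lumbar library, 33.7 and 64.6 CPM at 7 and 14 dpi, 1.06 CPM at 30 dpi and 88.7 at 6 mpi, and rose 83.6-fold (57.4 to 127). Here the 30 dpi library was the one that stood apart, since MLPH was above 30 CPM in the other lumbar libraries. TNIP3, a binding partner of the NF-kB inhibitor A20, was at 21.1 CPM in intact tissue, 0.34 at 30 dpi and 15.1 at 6 mpi, and rose 44.4-fold (22.7 to 99.2), with 9 and 132 UMIs. PYGL, a glycogen phosphorylase, rose from 0.61 to 12.3 CPM and SHANK3, a scaffold protein of synapses, from 2.09 to 14.3.

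The largest falls were in SLFN13, MCTP1, OTOP1, CMTM8, SMOC2, SLFN5, ISM1, FREM2, NAALAD2 and SEMA3C. SLFN13, an RNA-cleaving schlafen protein, had 19.5, 14.8, 16.1, 56.7 and 0.57 CPM and fell 98.9-fold (42.3 to 305), from 1497 to 5 UMIs. MCTP1 (chr6:91556780-92151365), a calcium-sensing membrane protein, had 38.7 CPM in the intact lumbar library, 259, 144 and 486 at 7, 14 and 30 dpi and 35.7 at 6 mpi. It fell 13.6-fold (12.2 to 15.3) from values that were raised in all 3 earlier injury libraries to its intact level. SMOC2, a secreted matrix protein, had 130, 13.5, 6.98, 167 and 15.95 CPM and fell 10.5-fold (8.86 to 12.5), so that the 30 dpi library was close to intact and the other injury libraries were low. CMTM8, which also fell in microglia-like nuclei, had 0.96 CPM in intact tissue, 88.7, 57.1 and 64.9 at 7, 14 and 30 dpi and 5.51 at 6 mpi, and fell 11.8-fold (8.85 to 16.1). SEMA3C, a secreted axon guidance factor, fell from 62.1 to 9.87 CPM.

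The clusters holding oligodendrocyte-like nuclei also differed between the times. Clusters 2, 8 and 11, with 1609, 707 and 632 nuclei of the intact lumbar library, held 1.52%, 0.297% and 0.371% of the class at 30 dpi and 10.6%, 4.26% and 7.06% at 6 mpi, while cluster 6 held 39.2% and 22.5%. The part of this makeup in the ratios of the whole class, returns to the intact level included, was not tested beyond the clusters that follow. Clusters 8 and 11 had 8 and 10 nuclei at 30 dpi and were left out. Within the 3 oligodendrocyte-like clusters with at least 20 nuclei at both times, 19 of the 20 named genes kept their direction in all 3 and 16 were past 2-fold in all 3. TNIP3 was the exception, at 4.53 in cluster 6 and -0.12 and 0.00 in the other two. After thinning to 1000 UMIs, MLPH was seen in 0.07% of nuclei at 30 dpi and 6.07% at 6 mpi (0.52% and 18.4% before thinning), and MCTP1 in 33.9% and 1.97% (79.1% and 8.20%), while MCTP1 was seen in 32.4% and 29.1% of neuron-like nuclei. Median depths were 8031.5 and 3508 UMIs. Of 10 glucocorticoid response genes 2 rose, FKBP5 from 50.6 to 117 CPM and ZBTB16 from 113 to 240, and none fell, beside 7.05% of all genes higher and 2.11% lower, with a median of 0.53. Relative to the median gene ZBTB16 was at 0.96, under 2-fold. FKBP5 had 186 CPM in intact lumbar cord. Of 4 measured immediate early genes FOS rose, at 5.76 and 13.3 CPM, but not after centring, and none of 11 heat shock and 20 autophagy genes passed 2-fold.

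Neuron-like nuclei had the lowest share of genes past 2-fold, 4.03% either way. None of 23 glutamate receptor genes, 19 inhibitory receptor and chloride transporter genes, 31 voltage-gated channel genes, 8 serotonin and adrenergic receptor genes, 7 transmitter genes and 11 neuropeptide genes passed 2-fold. Their median log2 ratios were -0.01, 0.04, -0.03, 0.03, -0.13 and -0.10, against 0.06 for all genes. GRIA2, an AMPA receptor subunit, was at 668 and 798 CPM, and SLC12A5, the chloride transporter KCC2, at 60.7 and 68.9. HTR2C, a serotonin receptor, was at 636 and 438 CPM, with 512 in intact lumbar cord. The widest ratios in these lists were those of NPY, a neuropeptide, at -0.78, and GRP, another, at 0.72. GAD2, an enzyme of GABA synthesis, was at 79.8 and 53.3 CPM and GAD1 at 60.0 and 54.6. Of 13 identity and neurofilament genes ENO2, neuronal enolase, rose from 73.8 to 152 CPM, though to a log2 ratio of 0.71 after span and GC centring, and none fell. ENO2 was also past 2-fold in microglia-, oligodendrocyte- and OPC-like nuclei, at log2 ratios of 1.63, 1.41 and 1.25 beside 1.03 here. Its rise was thus not particular to neuron-like nuclei. Of 8 axon growth genes MARCKS, an actin-regulating membrane protein, fell from 6.15 to 2.18 CPM (-0.41 at CPM + 10) and none rose, with GAP43 at 122 and 111. None of 10 immediate early, 13 heat shock, 10 glucocorticoid response and 20 autophagy genes passed 2-fold.

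Many of the genes with the largest ratios in neuron-like nuclei had low CPM, though ANKRD30A, RAB11FIP1 and NMS did not. The largest rises were in GRIN3B, LCN1, VARS2, LY6G5C, MMP23B, CDK3, CHTF18, GNMT, NOC4L and ANKRD30A. GRIN3B, an NMDA receptor subunit outside the list of glutamate receptor genes above, was at 0.91 and 6.41 CPM (55 and 150 UMIs), and VARS2, a mitochondrial valyl-tRNA synthetase, at 1.91 and 10.4. ANKRD30A stood at 131 CPM in the intact lumbar library, 43.1 at 30 dpi and 138 at 6 mpi, and rose 3.21-fold (3.05 to 3.38) back to the intact level. The largest falls included SLC45A2, PSMA8, TDRD9, IQCF2, C9orf153, OR3A1, RAB11FIP1, BRIP1 and NMS. RAB11FIP1, an effector of recycling endosomes, had 15.5, 15.01, 16.8, 55.1 and 13.6 CPM and fell 4.05-fold (3.61 to 4.56), so that 30 dpi alone was high. NMS, the neuropeptide neuromedin S, which is outside the list of neuropeptide genes above, had 12.8, 32.0, 46.3, 44.1 and 14.5 CPM and fell 3.04-fold (2.71 to 3.41) to near its intact level. Of 19 of these genes, 16 kept their direction in all 10 neuron-like clusters with at least 20 nuclei at both times, and GRIN3B was past 2-fold in none of them. At CPM + 10 the named rises other than that of ANKRD30A, and the falls of SLC45A2, PSMA8, TDRD9, IQCF2, OR3A1 and BRIP1, were under 2-fold.

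In OPC-like nuclei 5.3% of all genes were higher and 1.39% lower, so that a count of 0 in a short list is near the share of all genes. None of 14 precursor identity genes passed 2-fold, with a median of -0.33. PCDH15, a protocadherin of precursors, was at 5914 and 5362 CPM and SOX6 at 4352 and 2480. Of 8 genes of committed precursors and new oligodendrocytes ENPP6 fell from 119 to 38.2 CPM (3.11-fold, 2.21 to 4.51) and none rose, but its log2 ratio was -0.21 when the 2 libraries were clustered alone. The largest rises were in SLC51A, NKAIN4, BTNL9, EYA1 and SPSB3, with EYA1, a developmental transcription cofactor, from 18.9 to 92.2 CPM against 53.3 in intact cord. The largest falls were in SLCO1B3, AGMO, TNS1, SEMA5B and ZNF257. SLCO1B3, an organic anion transporter, had 36.1, 73.7, 76.2, 84.1 and 5.30 CPM and fell 15.9-fold (6.72 to 49.3), from 272 to 5 UMIs. TNS1, a focal adhesion protein, fell from 77.9 to 9.54 CPM, but was at -0.17 when the 2 libraries were clustered alone. Oligodendrocyte markers in these nuclei summed to 397 CPM at 30 dpi and 565 at 6 mpi. None of 5 glucocorticoid response, 9 autophagy, 3 heat shock genes and 1 immediate early gene passed 2-fold.

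Astrocyte-like nuclei numbered 155 and 120. Of 7 measured reactive astrocyte genes none rose and 3 fell, beside 4.54% of all genes higher and 4.33% lower, with a median of -0.97. SERPINA3, a protease inhibitor of the acute phase (chr7:156782203-156794320), had 5.25 CPM in the intact lumbar library, 2622, 36.0 and 191 CPM at 7, 14 and 30 dpi and 17.1 at 6 mpi, and fell 11.2-fold (6.17 to 22.6). CHI3L1, a chitinase-like protein, had 9.48, 1417, 60.8, 147 and 45.04 CPM and fell 3.27-fold (2.22 to 4.98), and CP, ceruloplasmin, went from 89.2 to 28.0 CPM. GFAP, the intermediate filament of reactive astrocytes, was at 2793 and 3066 CPM against 942 in intact cord. Of 15 transport genes 3 rose and none fell. Among them ALDH1L1, a folate enzyme of astrocytes, rose from 72.4 to 165 CPM (0.96 when the 2 libraries were clustered alone), and NDRG2 from 160 to 385 CPM, with a log2 ratio of 0.57 after span and GC centring. NDRG2 was also past 2-fold in oligodendrocyte-, neuron- and OPC-like nuclei, at 1.46, 1.14 and 1.22 beside 1.26 here. SLC1A2, the main glutamate transporter, was at 5515 CPM in intact tissue, 1593 at 30 dpi and 3144 at 6 mpi, just under 2-fold.

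The 2 astrocyte-like clusters changed places between the libraries, with 103 and 32 nuclei in the one led by SLC14A1 and ITGB4 and 52 and 88 in the one led by ITPRID1 and SLC1A2. Within these clusters SLC1A2 had log2 ratios of -0.26 and 0.23, CP -0.22 and -2.51, and SERPINA3 -2.24 and -2.42. OPC markers summed to 935 and 542 CPM in the astrocyte-like nuclei, and their part was not tested. The largest rises were in CES1, COL16A1, RAPGEF3, OGDHL and RYR1, with CES1, a carboxylesterase, from 20.5 to 152 CPM against 78.9 in intact cord. Besides SERPINA3 the largest falls were in PPP1R17, MCF2L2, SEMA3A and NRXN3. NRXN3, a presynaptic adhesion molecule, had 639 CPM in intact tissue, 4867, 907 and 4152 at 7, 14 and 30 dpi and 481 at 6 mpi, and fell 8.62-fold (7.70 to 9.69) to below intact. All 10 kept their direction in both clusters. Of 7 glucocorticoid response genes ZBTB16 rose from 85.6 to 191 CPM and none fell, and none of 6 autophagy genes passed, counts near the 4.54% and 4.33% of all genes.

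Across the 5 classes, the 6 mpi library lay outside the range of all other 6 libraries for 68.6% to 83.0% of genes past 2-fold, and the 30 dpi library for 43.2% to 54.2%. A value outside that range was therefore more often one of the 6 mpi library, the shallowest. Named genes for which 30 dpi rather than 6 mpi stood apart among the lumbar libraries included MLPH in oligodendrocyte-like nuclei, FN1 and ZCWPW2 in microglia-like nuclei and RAB11FIP1 in neuron-like nuclei.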

How the data were processed

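Nuclei from 7 pieces of rhesus monkey spinal cord were profiled with 10x version 3 chemistry, and the authors deposited UMI counts per gene and nucleus, made with Cell Ranger 6.0.0 against Mmul_10 and not normalized. Whether intronic reads were counted is not given in the sources used here. Nuclei needed at least 1000 UMIs, over 500 genes, under 10% mitochondrial and under 5% hemoglobin UMIs. The 5% of nuclei of each library with the highest simulated-doublet score were removed, 460 at 30 dpi and 297 at 6 mpi. Clusters came from 2000 variable genes, 30 principal components, 20 neighbours and Leiden resolution 1 (leidenalg 0.10.2, scikit-learn 1.9.0) and took the name of the best-scoring marker list. Thresholds for mixed markers were set after the clusters were seen.

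UMIs were summed per class and library, scaled to CPM and compared with a pseudocount of 1 CPM. Intervals (95%, scipy 1.17.1) are exact conditional binomial for ratios, Clopper-Pearson for shares and Newcombe for share differences. With 1 library per side no test was run. The ratio code was tested on simulated data. Named largest changes are the 10 each way (5 in OPC-like and astrocyte-like nuclei) among genes past 2-fold that have a symbol and at least 50% of the CPM of their highest class, without mitochondrial, hemoglobin and ribosomal protein genes and those past 2-fold the same way in 4 or more classes. In gene lists the most abundant and most changed members may be named, and members a result turns on. The comparison, lists and rules were chosen with earlier results of these data known. Sequences and positions come from the Mmul_10 genome and annotation. Some members of the gene lists are counted but not reported here by name.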

Additional observations from a re-analysis of the deposited data

Results flagged for a closer look

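In 13 genes the log2 ratio of 6 mpi over 30 dpi was past 2-fold in opposite directions in a pair of cell classes, with both counting intervals beyond 2-fold. They were singled out for these opposite directions among 40 such gene and class pairs, and the difference between classes was not tested, since each class has 1 library per side. Of the 13 genes, 6 were higher in microglia-like and lower in oligodendrocyte-like nuclei: the presynaptic scaffold gene ERC2 was at 1.23 and -3.52, the sorting receptor gene SORCS2 at 1.73 and -2.35, the adhesion gene TENM4 at 1.56 and -1.79, CSGALNACT1, an enzyme of chondroitin sulfate synthesis, at 1.70 and -1.74, FGF14, a partner of sodium channels, at 1.72 and -1.28, and the adhesion receptor gene ADGRL3 at 1.46 and -1.08. FGF14 was also at -1.55 in astrocyte-like nuclei. Some of these values rested on low CPM, where the ratio depends on the pseudocount of 1 CPM. Among them, in microglia-like nuclei, CSGALNACT1 was at 2.31 CPM at 30 dpi and 9.74 at 6 mpi (58 and 61 UMIs) and ERC2 at 8.68 and 21.7. In oligodendrocyte-like nuclei ERC2 had 43.7, 47.5, 44.8, 254 and 21.2 CPM in intact lumbar cord and at the 4 times after injury, so that the library at 30 dpi stood apart.

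Genes higher in microglia-like and lower in astrocyte-like nuclei were KAZN, at 2.51 and -1.25, DPP10, a partner of potassium channels, at 1.35 and -1.55, and the fatty acid binding protein gene FABP5, at 1.24 and -2.10. Those lower in microglia-like nuclei were KCNIP4, at -2.39 and at 1.36 in oligodendrocyte-like nuclei, PAK3, at -1.61 and at 1.37 in astrocyte-like nuclei, and SGO2, a protector of centromere cohesion, at -1.56 and at 1.25 in neuron-like nuclei. GALNTL6 was at 1.26 in oligodendrocyte-like and -1.48 in OPC-like nuclei. Here too some CPM values at 30 dpi and 6 mpi were low. SGO2 was at 2.44 and 7.18 CPM in neuron-like and 9.04 and 2.40 in microglia-like nuclei, and GALNTL6 at 4.17 and 11.4 in oligodendrocyte-like nuclei. For some genes the rising class had far lower CPM than the falling class. DPP10 was at 24.5 and 63.9 in microglia-like and 4888 and 1668 in astrocyte-like nuclei. KAZN was at 13.7 and 82.9 and at 1542 and 646. ADGRL3 was at 11.6 and 33.7 in microglia-like and 699 and 331 in oligodendrocyte-like nuclei. This did not hold for FABP5, at 71.9 and 171 in microglia-like and 83.2 and 18.6 in astrocyte-like nuclei. Whether such low levels are background was not tested. Oligodendrocyte markers were also higher in microglia-like nuclei at 6 mpi, as given above, and their part was not tested.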

How the results depend on the processing

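Of 181 counts and share differences recomputed under 11 alternative settings, 122 stayed within their limits and 59 moved. Most of these values are counts, which cannot change sign. A change of sign was looked for only in share differences whose interval left out 0, and 0 changed sign. With over 2000 UMIs per nucleus the share differences became -9.69 (microglia-like), 5.28 (oligodendrocyte-like) and 3.32 points (neuron-like). Without the filter on low counts, genes higher and lower were 1832 and 453 in microglia-like, 2384 and 1154 in OPC-like and 2516 and 2304 in astrocyte-like nuclei, and 340 were lower in oligodendrocyte-like nuclei. With CPM + 10 they were 390 and 145 in microglia-like, 166 and 87 in oligodendrocyte-like and 61 and 9 in neuron-like nuclei. With every nucleus thinned to 1000 UMIs, which leaves fewer genes measured, 682 were higher in microglia-like nuclei, and 322 and 117, 125 and 8, 34 and 11, and 22 and 26 were higher and lower in oligodendrocyte-, neuron-, OPC- and astrocyte-like nuclei. With only the libraries at 30 dpi and 6 mpi clustered, 31 were lower in OPC-like and 230 higher in astrocyte-like nuclei. With centring within span and GC quintiles, added after seeing the data, 658, 303, 186, 85 and 71 were higher in the 5 classes in the order of the report and 83 lower in OPC-like nuclei. Among the courses, the mean of the 3 intact libraries as reference gave 28 reversed and 311 recovering genes (against 234 held low) in microglia-like and 1 reversed in neuron-like nuclei. Centring on the median gave 13 still falling, 529 late rises and 202 late falls in microglia-like nuclei. Thinning gave 73 fading, 22 reversed, 2 still falling, 108 recovering, 478 late rises and 141 held low in microglia-like nuclei. It gave 9 still rising, 32 fading, 0 still falling, 39 recovering, 266 late rises, 81 late falls, 87 held high and 41 held low in oligodendrocyte-like nuclei, and 2 fading, 6 recovering, 115 late rises, 6 late falls, 4 held high and 8 held low in neuron-like nuclei. Apart from fewer genes measured, the cause was not tested.

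Of 134 named gene values past 2-fold, 127 stayed past it with median centring, 99 with CPM + 10, 121 when thinned, 133 with free RNA removed, 129 with the 2 libraries clustered alone and 125 with span and GC centring. Most values given only among the results flagged for a closer look are not part of these 134. DHCR7 in oligodendrocyte-like nuclei was the value that changed sign, to 0.020 when thinned. No paired analysis was possible because each time point is 1 library of 1 animal. For the same reason no library could be left out, and the depth of the 6 mpi library limits low genes, most of all in OPC- and astrocyte-like nuclei, where a gene had to reach 53.0 and 77.7 CPM to be measured.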
